A study of Mus musculus with 8 samples.

Results

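The keratins of the interfollicular epidermis were examined as a set of 8 genes in dorsal skin of Balb/c mice. The genes were Krt5, Krt14 and Krt15 of the basal layer, Krt1, Krt10, Krt2 and Krt77 of the suprabasal layers, and Krt79 of the follicle opening. They were chosen by name, as every probe set that the platform annotation assigns to one of these symbols and to no other gene. This gave 10 probe sets, 3 of them for Krt14 and 1 for each other gene, of 45101 on the array, and 8 genes of the 18193 with a probe set of their own. For 7 of the 8 genes, at least 1 probe set exceeded the median of its array on 2 or more arrays, and these 7 were tested among 12420 genes that met this filter. The exception was Krt2.

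The series models atopic dermatitis with DNCB (1-chloro-2,4-dinitrobenzene), a hapten that sensitizes skin on contact. In the DNCB group (n = 3) the hapten was applied to the back for 15 days, with vehicle over the last 7 days. In the DNCB+HY209 group (n = 3) the same schedule carried a polyethylene glycol (PEG) gel with 5% HY209, which activates GPCR19, a receptor for bile acids, in place of vehicle. Sham samples (n = 2) carry titles and source names that give neither DNCB nor HY209, but their protocol fields repeat the DNCB text, and this doubt touches each comparison with sham. Age and sex are not given in the sources used here. Each sample was 1 array of whole skin RNA. Whether each array stands for its own mouse is not said in the labels. The p-values therefore describe spread among these 8 arrays, part of which may be technical.

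Keratins are the intermediate filament proteins of epithelia. Each filament is built from pairs of a type I (acidic) and a type II (basic) chain, and in mice the type I genes of the set lie on chromosome 11 and the type II genes on chromosome 15. Basal cells make KRT5 with KRT14, and some also make KRT15, which is abundant in the hair follicle bulge. Cells that leave the basal layer switch to KRT1 with KRT10. KRT2 replaces KRT1 in the upper layers at some body sites, KRT77 is another suprabasal type II chain, and KRT79 marks the follicle infundibulum and sebaceous duct. In wounded or hyperproliferative epidermis the stress keratins KRT6, KRT16 and KRT17 are added.

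The tissue label was checked against markers of keratinocytes. All 9 markers listed (Trp63, Dsp, Dsc3, Perp, Sfn, Cdh1, Epcam, Pkp1 and Lgals7) passed the filter, and their mean log2 signal was 9.87 to 10.95 per array, against array medians of 4.07 to 4.22. Arrays of a group differed in other tissue content. The mean of the 23 measured hair follicle genes, of 28 listed, was 9.13 and 6.29 in sham, 4.71, 4.84 and 6.20 in DNCB, and 7.53, 5.26 and 5.32 in DNCB+HY209, and the log2 of their summed signal ranged from 11.37 to 14.50, from 9.56 to 11.95 and from 10.46 to 13.17. The mean signal of 7 bacterial spike-in probe sets ran from 9.25 on DNCB array 2 to 11.62 on sham array 2. The Gapdh ratio, of signal near the 3' end to signal near the 5' end, ran from 2.10 on DNCB array 2 to 7.35 on DNCB array 3. In whole skin RNA, fewer cells of a type and less RNA per cell cannot be told apart.

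In DNCB against sham, 2 of the 7 tested keratins fell, Krt77 and Krt15, and 0 rose. Both calls depended on single arrays, as given for each gene, and Krt14, Krt1 and Krt10 had higher means in DNCB that did not pass the threshold. Over all genes, 1.83% were called in this comparison, 1.37% higher and 0.459% lower. A gene was called where its adjusted p from limma was under 0.05, after Benjamini-Hochberg correction across the 12420 genes. At an unadjusted p under 0.05 stood 4 of the 7 keratins and 16.8% of all genes. Arrays of sham and DNCB did not overlap for 4 of the 7 keratins, 2 higher and 2 lower in DNCB, against 34.4% of all genes (23.3% higher and 11.2% lower).

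**Figure D1:**
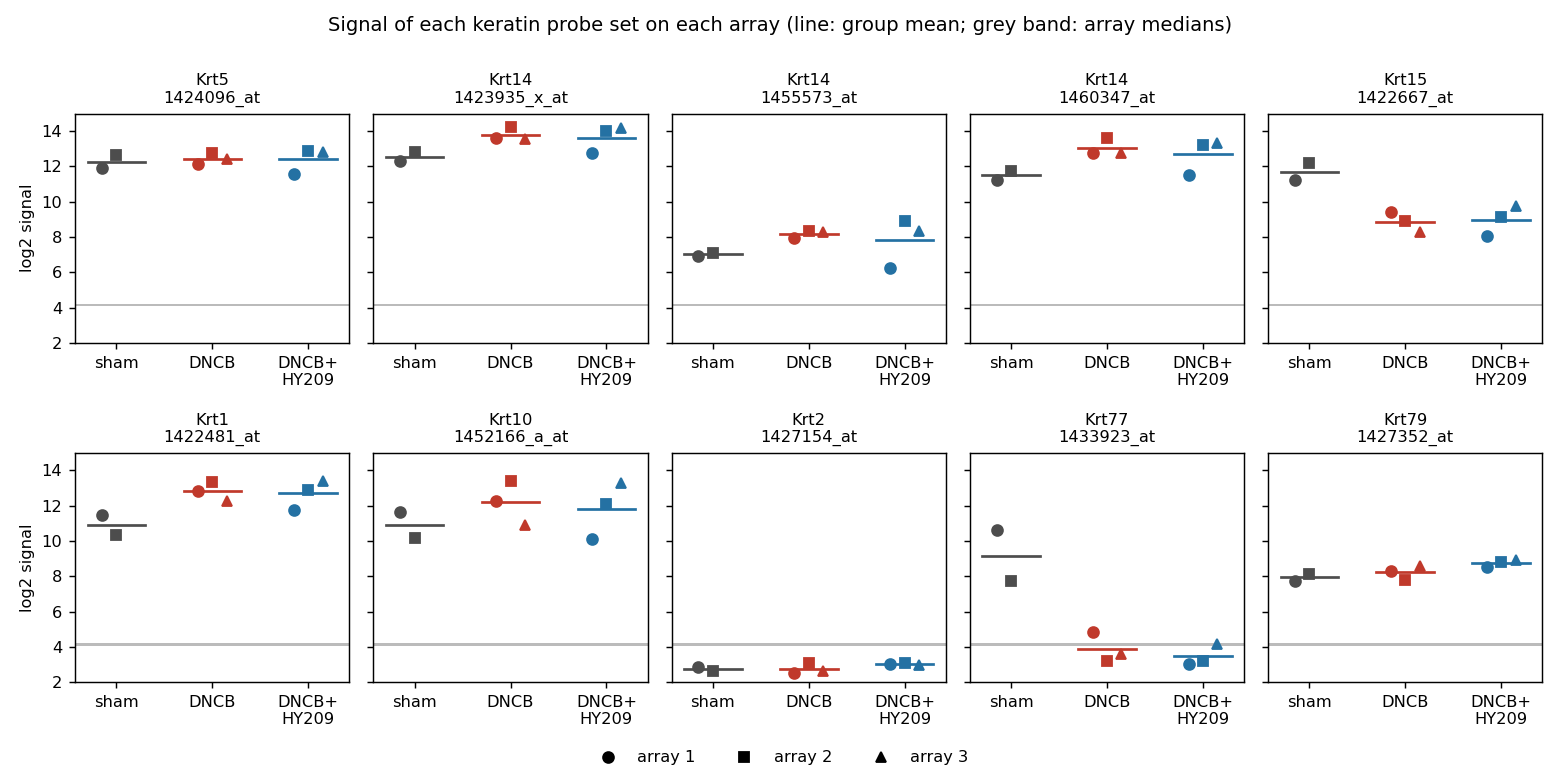
Log2 signal (y axis) of the 10 keratin probe sets on each of the 8 arrays, by group (x axis), with group means as lines, array numbers as marker shapes and the range of the array medians as a grey band. Krt77 drops from 10.61 and 7.71 in sham to values around the band, Krt15 is lower on all 6 DNCB-treated arrays, and Krt2 lies under the band on all arrays.

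Among basal keratins, Krt5, the type II chain of the basal layer (probe set 1424096_at), had group means of 12.27, 12.45 and 12.43 in sham, DNCB and DNCB+HY209. Sham arrays gave a log2 signal of 11.91 and 12.63, with 12.16, 12.78 and 12.40 in DNCB and 11.57, 12.90 and 12.82 in DNCB+HY209. The 3 groups overlapped. The difference between DNCB and sham was 0.18 (SE 0.41, 95% interval -0.75 to 1.10, adjusted p = 0.826). Its sign was not stable: with the hair follicle level as a covariate it was -0.66 and without sham array 1 it was -0.18, neither of which passed.

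Krt14, the type I partner of Krt5, is represented by 3 probe sets. The brightest, 1423935_x_at, gave 12.31 and 12.79 for sham and 13.59, 14.22 and 13.56 in DNCB. All 3 DNCB arrays lay above both sham arrays. The log2 difference was 1.24 (SE 0.40, 95% interval 0.34 to 2.14, adjusted p = 0.178), a fold of 2.36 that did not pass. The ending x marks probe sets of which some probes may also match other transcripts. In a fit of all 24675 probe sets that met the filter, of which 0.956% were called, the other Krt14 probe sets differed by 1.54 (SE 0.52, adjusted p = 0.227) for 1460347_at and by 1.16 (SE 0.64, adjusted p = 0.394) for 1455573_at. Probe set 1460347_at read 11.26 and 11.77 in sham against 12.76, 13.64 and 12.74 in DNCB, and 1455573_at read 6.95 and 7.10 against 7.95, 8.32 and 8.28. Both sets had all DNCB arrays above the sham arrays, so the 3 probe sets shared a direction. A further probe set, 1427841_at, is annotated to both Krt17 and Krt14 and was assigned to neither. It lay between 5.70 and 5.95 on all 8 arrays.

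Krt15, the type I keratin of basal cells and of the bulge (1422667_at), fell. Sham arrays read 11.23 and 12.18, and DNCB arrays 9.40, 8.93 and 8.31. Every DNCB array lay below both sham arrays, and by more than the spread within either group. The difference was -2.82 (SE 0.52, 95% interval -3.99 to -1.66, adjusted p = 0.0365), a fold of 7.09 lower in DNCB. The call ended without either sham array (adjusted p = 0.0946 without array 1 and 0.226 without array 2), without DNCB array 1 (0.0940), array 2 (0.102) or array 3 (0.0571), and without DNCB+HY209 array 2 (0.0689), which enters only through the shared estimate of the spread. The difference stayed below 0 in each of these fits, between -3.30 and -2.35. With the hair follicle level as a covariate it was -4.01 (SE 0.39, adjusted p = 0.0101).

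The suprabasal type II keratin Krt77 (1433923_at) had the lowest log2 difference of the set. Sham arrays read 10.61 and 7.71, and DNCB arrays 4.85, 3.20 and 3.61. The sham arrays differed from each other by 2.90, and still lay above every DNCB array. The difference was -5.27 (SE 0.79, 95% interval -7.06 to -3.49, adjusted p = 0.0219), a fold of 38.7 lower in DNCB. DNCB arrays 2 and 3 lay below their array medians, where log2 differences are approximate, and Krt77 exceeded the array median on 4 of the 8 arrays. The call ended without sham array 1 (-3.82, adjusted p = 0.0733), without DNCB array 1 (adjusted p = 0.0586) and without DNCB array 2 (adjusted p = 0.0743). Without sham array 2 the difference was -6.72 (adjusted p = 0.0198), so its size also rests on which sham array is used. On sham array 1, where Krt77 was highest, the hair follicle genes were also highest (mean 9.13). DNCB+HY209 array 1 had the next highest hair follicle mean, 7.53 against 6.29 on sham array 2. Krt77 read 3.04 on that gel array and 7.71 on sham array 2. With the hair follicle level as a covariate the difference between DNCB and sham was -4.52 (SE 1.03, adjusted p = 0.199). The part of hair content in the Krt77 difference was not tested.

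Krt1, the first type II keratin of differentiating cells (1422481_at), ran in the other direction. Its log2 signal was 11.46 and 10.32 in sham against 12.85, 13.35 and 12.24 in DNCB. The groups did not overlap. The difference of 1.92 (SE 0.52, 95% interval 0.74 to 3.10, adjusted p = 0.125) did not pass. Krt10, the type I partner of Krt1 (1452166_a_at), read 11.66 and 10.20 in sham and 12.27, 13.43 and 10.89 in DNCB. DNCB array 3 fell between the sham arrays, so the groups overlapped. The difference was 1.26 (SE 0.96, 95% interval -0.90 to 3.42, adjusted p = 0.491), an interval that holds a fall, no change and a rise of several fold.

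The promoters of these genes are shown for 3 members that differed in behaviour: Krt77, which fell, Krt10, which had the highest residual SD of the set, and Krt5, whose group means were close. RefSeq promoters of the assembly GRCm38.p6 were found for 6 of the 8 genes (Krt5, Krt14, Krt10, Krt2, Krt77 and Krt79). The 100 bases before each annotated start are printed 5' to 3' on the strand of the gene, with capitals for matches on that strand to the TATA box letters TATANA.
Krt77, chr15:101869706-101869805, minus strand: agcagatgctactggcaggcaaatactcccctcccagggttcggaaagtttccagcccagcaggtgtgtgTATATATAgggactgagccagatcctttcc
Krt10, chr11:99389365-99389464, minus strand: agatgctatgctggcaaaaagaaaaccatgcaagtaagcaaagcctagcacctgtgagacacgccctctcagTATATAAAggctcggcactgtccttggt
Krt5, chr15:101712906-101713005, minus strand: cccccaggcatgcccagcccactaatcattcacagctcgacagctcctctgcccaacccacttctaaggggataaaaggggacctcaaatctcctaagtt
In Krt77 and Krt10 the first match began 30 and 28 bases before the start, and Krt2 had one at 29 bases. Krt5 had no match, but its printed bases hold gataaa, which differs from TATANA at the first letter. Such variants were not searched, so the lack of a match does not mean the lack of a TATA-like box. A match on the gene's strand with its first base 35 to 25 bases before the start occurred in 3 of the 6 keratin promoters and in 2.6% of all 32851 promoters. Over 250 bases and both strands, TATANA was in the same 3 keratin promoters and in 22.6% of all. The AP-1 letters TGANTCA, in 6.75% of all promoters, and the AP-2 letters GCCNNNGGC, in 13.7%, were in 0 of the 6 within these 250 bases. The TATANA letters were thus present both in Krt77, which fell, and in Krt10, which did not pass.

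Krt2, a late suprabasal type II keratin (1427154_at), lay below the array median on all 8 arrays. It read 2.88 and 2.64 in sham, 2.54, 3.08 and 2.64 in DNCB and 3.01, 3.07 and 2.98 in DNCB+HY209. At this signal no difference was measurable, and Krt2 was not in the main test. Krt79, the keratin of the follicle opening (1427352_at), read 7.72 and 8.15 in sham and 8.29, 7.81 and 8.56 in DNCB. These groups overlapped, with a difference of 0.28 (SE 0.28, 95% interval -0.36 to 0.92, adjusted p = 0.600).

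**Figure D2:**
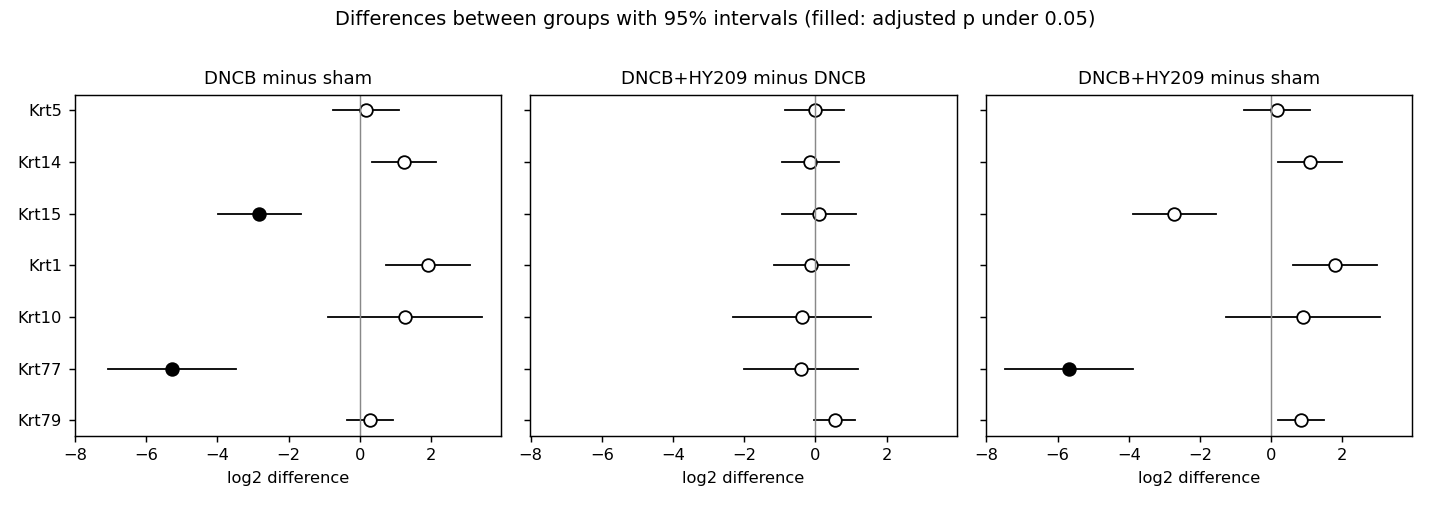
Log2 difference between groups (x axis) for the 7 tested keratins (rows), with 95% intervals from limma as bars and filled points for an adjusted p under 0.05. Krt77 at -5.27 and Krt15 at -2.82 are filled for DNCB against sham, no point is filled for DNCB+HY209 against DNCB, and only Krt77 is filled for DNCB+HY209 against sham.

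The HY209 gel was compared with vehicle in DNCB-treated skin. None of the 7 keratins was called by limma, 0 had an unadjusted p under 0.05, and arrays of the groups overlapped for 7 of 7. Over all genes 0.0% were called, 1.3% had an unadjusted p under 0.05 and 4.99% had no overlap between groups (2.83% higher and 2.17% lower with the gel). Both keratins that fell with DNCB had means with the gel close to those with vehicle. Krt77 read 3.04, 3.22 and 4.18 in DNCB+HY209, a difference from DNCB of -0.41 (SE 0.71, 95% interval -2.01 to 1.19, adjusted p = 1.00). Gel arrays 1 and 2, like DNCB arrays 2 and 3, lay below their array medians for Krt77, where log2 differences are approximate. Krt15 read 8.07, 9.12 and 9.75, a difference of 0.10 (SE 0.46, 95% interval -0.94 to 1.14, adjusted p = 1.00). The upper bound for Krt15 lies below the 2.82 by which its sham mean exceeded its DNCB mean.

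The pair Krt5 and Krt14 differed between gel and vehicle by -0.02 (SE 0.36, 95% interval -0.85 to 0.81) and -0.15 (SE 0.35, 95% interval -0.95 to 0.65). Krt14 read 12.78, 13.98 and 14.16 with the gel at its brightest probe set, with array 1 below all DNCB arrays and the others among them. Its other probe sets read 11.49, 13.20 and 13.34 and 6.25, 8.90 and 8.37. For Krt1 the gel arrays read 11.76, 12.91 and 13.42, a difference of -0.12 (SE 0.47, 95% interval -1.17 to 0.94). For Krt10 they read 10.09, 12.08 and 13.31, a difference of -0.37 (SE 0.85, 95% interval -2.30 to 1.57). These intervals leave room for changes of about 1 log2 unit in most of the genes and of about 2 in Krt10 and Krt77, so they do not show that gel and vehicle acted alike. Krt79 had the highest log2 difference of the set, 0.55 (SE 0.25, 95% interval -0.03 to 1.12, unadjusted p = 0.0603, adjusted p = 1.00), with gel arrays at 8.54, 8.84 and 8.91.

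Gel-treated skin was also compared with sham, which shares its sham arrays with the first comparison. Krt77 was the 1 keratin called, against 0.403% of all genes, 0.266% called higher and 0.137% lower. At an unadjusted p under 0.05 stood 5 of the 7 keratins and 19.3% of all genes. In the fit of probe sets, Krt77 was again the 1 keratin called, against 0.267% of all. It was lower by 5.68 on the log2 scale (difference -5.68, SE 0.79, adjusted p = 0.0294). All 3 gel arrays lay below both sham arrays, and gel arrays 1 and 2 also below their array medians, so the size of the difference is approximate. The call ended without sham array 1 (difference -4.23, adjusted p = 0.0746), DNCB array 1 (adjusted p = 0.0525), DNCB+HY209 array 2 (0.161) and DNCB+HY209 array 3 (0.0607), and in a fit of only these 2 groups (0.0712). It also ended with the hair follicle level as a covariate (difference -5.17, adjusted p = 0.0694), where Krt15 was called in its place (-3.53, adjusted p = 0.00914), and with the spike-in level (-5.87, adjusted p = 0.193). Without sham array 2 the Krt77 difference was -7.13. Krt15 differed by -2.73 (SE 0.52, adjusted p = 0.0622), again with no overlap, and passed after quantile normalization (-2.86, adjusted p = 0.0401). Krt1 differed by 1.80 (SE 0.52, adjusted p = 0.160), Krt14 by 1.09 (SE 0.40, adjusted p = 0.211) and Krt79 by 0.83 (SE 0.28, adjusted p = 0.202), none of which passed. Krt10 differed by 0.89 (SE 0.96, adjusted p = 0.586) and Krt5 by 0.16 (SE 0.41, adjusted p = 0.835), with groups that overlapped. Groups did not overlap for 4 of the 7 keratins (Krt15, Krt77, Krt1 and Krt79), against 41.4% of all genes (29.1% higher and 12.2% lower).

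The keratins varied widely between arrays of a group. The residual SD of Krt10 around its group means was 1.38, higher than that of nearly all genes (percentile 99.5), and those of Krt77, Krt1 and Krt15 were 1.13, 0.73 and 0.71 (percentiles 98.9, 95.3 and 94.6). Krt5 and Krt14 had residual SDs of 0.56 and 0.55 (percentiles 89.1 and 88.5), and Krt79 one of 0.31 (percentile 53.0). DNCB+HY209 array 1 was the lowest of its group for 7 of 7 keratins, and array 3 the highest for 6, with Krt5 the exception. DNCB array 2 was the highest for 4 (Krt5, Krt14, Krt1 and Krt10) and DNCB array 3 the lowest for 4 (Krt14, Krt15, Krt1 and Krt10). Of the sham pair, Krt5, Krt14, Krt15 and Krt79 were higher on array 2, and Krt1, Krt10 and Krt77 were higher on array 1.

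**Figure D3:**
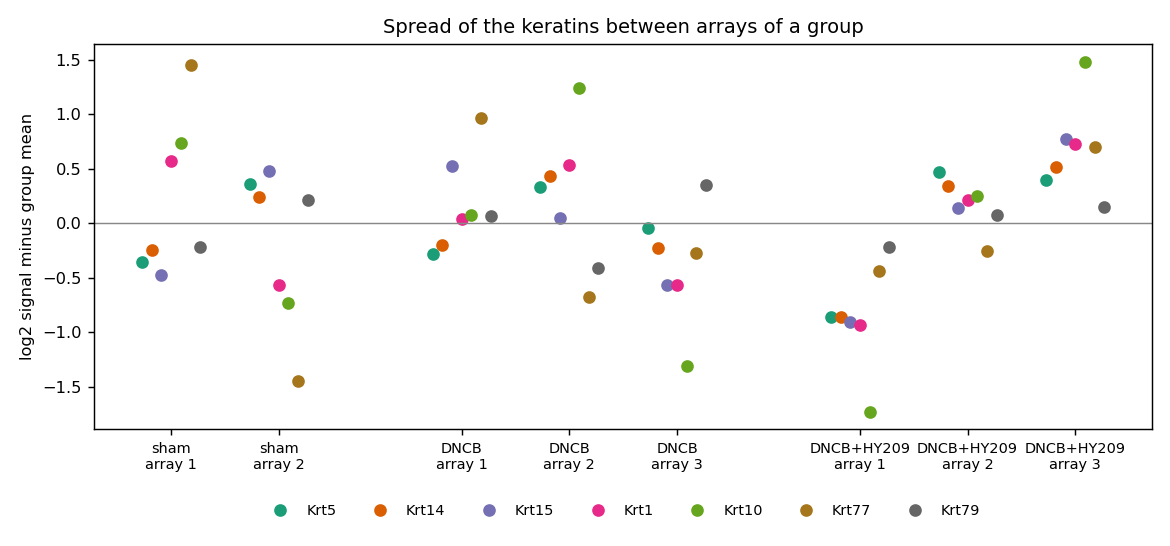
Log2 signal minus the mean of the group (y axis) for the 7 tested keratins (colours) on each array (x axis). DNCB+HY209 array 1 has all 7 keratins below 0, from -1.73 for Krt10 to -0.22 for Krt79, and on the sham pair Krt1, Krt10 and Krt77 are higher on array 1 and the other 4 on array 2.

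Quality measures also differed between these arrays. DNCB+HY209 array 1 and DNCB array 3 had the highest spike-in signals of their groups (10.89 and 10.83) and the highest Gapdh ratios (3.24 and 7.35), and DNCB array 2 had the lowest of both (9.25 and 2.10). Krt77 and Krt79 were lowest in DNCB on that array 2, unlike Krt5, Krt14, Krt1 and Krt10. In sham the measures parted, with spike-in signals of 10.99 and 11.62 and Gapdh ratios of 4.46 and 2.81 on arrays 1 and 2. When the spike-in level entered the fit, the DNCB difference was -0.56 for Krt10 (SE 0.64, adjusted p = 0.901), opposite in sign to the value without it. It was -5.46 for Krt77 (SE 1.05, adjusted p = 0.118) and -3.15 for Krt15 (SE 0.65, adjusted p = 0.133), both no longer called. Without the covariate these differences were smaller in size, -5.27 (SE 0.79) and -2.82 (SE 0.52). Both sham arrays had higher spike-in signals than every DNCB-treated array, with or without the gel. In comparisons with sham, the spike-in level and the treatment therefore cannot be fully told apart. When the Gapdh ratio entered the fit instead, Krt77 (-5.27, SE 0.80, adjusted p = 0.0149) and Krt15 (-2.83, SE 0.41, adjusted p = 0.0127) stayed called. Krt10 was then at 1.25 (SE 0.80, adjusted p = 0.401). Calls over all genes rose from 227 to 452 in that fit. The part of RNA quality in the spread was not tested.

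Calls among the keratins that did not pass turned on DNCB+HY209 array 1. Without it, Krt14 passed in both comparisons with sham: its difference was 1.24 (SE 0.24, adjusted p = 0.0360) for DNCB, where only the estimate of the spread changed, and 1.52 (SE 0.27, adjusted p = 0.0280) for DNCB+HY209. Krt1 passed as well, with 1.92 (SE 0.40, adjusted p = 0.0458) and 2.27 (SE 0.44, adjusted p = 0.0408). Without this array 4 of the 7 keratins were called in each comparison with sham, namely Krt14 and Krt1 as higher and Krt15 and Krt77 as lower. Calls over all genes rose in the same fits, from 227 to 352 for DNCB and from 50 to 287 for DNCB+HY209. Other settings brought Krt14 and Krt1 nearer to 0. In DNCB against sham, Krt14 differed by 0.43 (adjusted p = 0.752) with the hair follicle level as a covariate and by 0.65 (adjusted p = 0.765) with the spike-in level. Krt1 differed by 0.98 (adjusted p = 0.535) with the spike-in level.

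**Figure D4:**
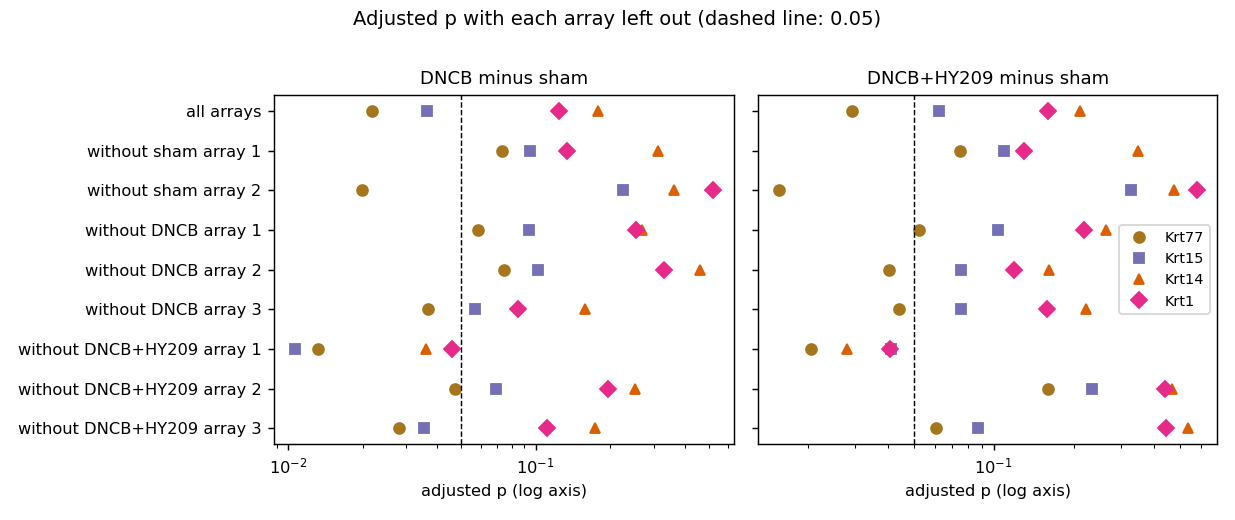
Adjusted p (x axis, log scale) of Krt77, Krt15, Krt14 and Krt1 with all arrays and with each array left out in turn (rows), for both comparisons with sham; the dashed line marks 0.05. Krt14 and Krt1 cross the line only without DNCB+HY209 array 1.

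Other keratins and genes of the same cell layers were read from lists. Of the stress keratins, 3 of 4 rose in DNCB (Krt6a, Krt6b and Krt16) and 0 fell, against 1.37% of all genes called higher and 0.459% lower. Their median log2 difference was 5.69, against 0.15 over all genes. Krt6b differed by 8.70 (SE 0.55, adjusted p = 0.000431), while Krt17 differed by 1.86 (adjusted p = 0.0875) and did not pass. Krt6b read 4.14 on sham array 1, below the median of that array, so the size of its difference is approximate. With the gel against sham 2 of 4 rose, Krt6b and Krt16, against 0.266% of all genes called higher. Of 5 measured other epithelial keratins, of 13 listed, and of 7 measured inner root sheath keratins, of 8, none passed in any comparison. The inner root sheath list had a median of -1.56 in DNCB against sham. Its mean signal was 8.65 and 6.62 in sham and 5.20, 5.24 and 7.49 in DNCB, so the groups overlapped.

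Of 11 measured genes for basal adhesion and basement membrane, such as the collagen VII gene Col7a1 (1.05, adjusted p = 0.192), 0 passed in DNCB against sham, with a median of 0.41. Their mean signal overlapped between groups, at 7.85 and 8.40 in sham and 8.10, 8.86 and 8.27 in DNCB. Of 9 basal cell regulators 0 passed, with a median of 0.01. Of 12 measured genes of the upper follicle, bulge and sebaceous gland, 1 fell, against 0.459% of all genes, and 11 did not pass. The gene that fell, Lgr6, a receptor of follicle and epidermal stem cells, differed by -2.29 (SE 0.33, adjusted p = 0.0187). Lgr6 read 6.85 and 7.22 in sham and 4.79, 4.23 and 5.24 in DNCB, so that the groups did not overlap, as for Krt15. The median of that list was -0.45.

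Of 14 measured early differentiation genes, which accompany Krt1 and Krt10, 1 rose in DNCB, against 1.37% of all genes, and 13 did not pass. The gene that rose was the desmosomal cadherin Dsc2 (2.74, SE 0.54, adjusted p = 0.0439). Dsc2 lay below the array median on both sham arrays, so the size of its difference is approximate. The list had a median of 0.93, with all DNCB arrays above sham for 8 of 14, against 23.3% of all genes. Of 13 late differentiation genes 0 passed, with a median of 1.18 and the crosslinking enzyme gene Tgm1 at 3.01 (adjusted p = 0.0920). Tgm1 read 2.93 on sham array 2, below the median of that array, so its size is approximate. The mean signal of the late list was 7.48 and 5.55 in sham and 8.14, 8.61 and 6.84 in DNCB, so the groups overlapped. Of 18 differentiation regulators 0 passed, with a median of 0.13 and Gata3, a transcription factor, at -1.49 (adjusted p = 0.0860). Of 10 proliferation genes 0 passed, with a median of 0.43. Their mean signal was 7.75 and 6.60 in sham and 7.22, 7.92 and 7.69 in DNCB, so these groups overlapped too. With the gel against vehicle 0 genes passed in each of these lists, and early differentiation had a median of -0.24 against 0.03 over all genes.

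For the counts of markers called in DNCB that follow, the shares over all genes were 1.37% higher and 0.459% lower. Hair follicle genes, listed to mark tissue content, had 0 of 23 higher and 5 lower in DNCB, with a median of -2.16. Leukocyte markers had 2 of 5 higher, S100a8 and Ptprc, with a mean signal of 4.85 and 5.07 in sham and 7.16, 7.52 and 6.57 in DNCB. Ptprc lay below the array median on both sham arrays (2.83 and 3.75). Endothelial markers had 2 of 4 higher, Cdh5 (2.20, adjusted p = 0.0230) and Emcn (1.86, adjusted p = 0.0414), with mean signals of 4.72 and 4.45 in sham and 6.14, 6.38 and 5.60 in DNCB. Emcn also lay below the array median on both sham arrays (3.41 and 2.82), so the size of its difference is approximate. Of 8 skeletal muscle markers 1 was higher, the myosin gene Myh2 (4.45, adjusted p = 0.00639). For 3 measured adipocyte markers, of 5 listed, 0 passed, with a median of -1.27, and for 5 melanocyte markers 0 passed, with a median of -1.45. For 6 fibroblast markers 0 passed, and the arrays' mean signals were 8.86 and 9.69 in sham, 9.47, 10.01 and 8.85 in DNCB and 8.37, 8.58 and 8.52 with the gel. The part of these cell types in the keratin differences was not tested.

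Genes with profiles nearest to a keratin were named by the root mean square (RMS) difference of log2 signals over the 8 arrays, each gene centred on its own mean, for members that spanned more than 2 log2 units. All genes share the same arrays, so likeness includes whatever differs between arrays. Nearest to Krt1 were Tmprss4, a membrane serine protease gene (RMS 0.13), Fam162a (0.21) and Klf10 (0.21), against a median of 0.92 over all genes. Krt10 was nearest to Oas1f (0.36), the surface protein gene Ly6d (0.36) and the epidermal calmodulin-like gene Calm4 (0.36), against a median of 1.13. Within the set Krt10 was closest to Krt1 (0.64), whereas Krt1 was closest to Krt14 (0.54). Krt15 was closest in the set to Krt5 (1.34), and Krt77 to Krt15 (1.58). Krt15 was nearest to the actin-severing protein gene Gsn (0.38), Cyp2f2 (0.51) and Slc26a7 (0.53), against a median of 1.42. Nearest to Krt77 were the late cornified envelope gene Lce1m (0.98), Cyp2e1 (1.14) and Sema3d (1.20), against a median of 2.62.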

How the data were processed

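Total RNA from frozen skin was amplified from the 3' end, labelled with biotin and hybridised to Affymetrix mouse arrays (per the labels' protocols). Those name a 430A array, whereas the table's probe sets and the annotation used here are those of the larger array of that generation. The deposited values are log2 signals per probe set, a scale read from their range. Affymetrix Expression Console and MAS5 are named in the submitters' processing notes, while the normalization between arrays is not stated there. Detection calls were not used here.

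Of 45101 probe sets, 64 were controls, 34945 had 1 gene symbol, 932 several and 9160 none in the annotation. The filter kept a probe set that exceeded its array's median on 2 or more of 8 arrays, and a gene was its brightest kept probe set. Values were fitted as deposited, with no pseudocount, with limma 3.58.1 in R 4.3.3 (lmFit, then eBayes with trend = TRUE), two-sided, with all 8 arrays in 1 fit. SE is limma's moderated standard error. A second fit took all 24675 kept probe sets. The test was run on simulated data with known changes before use. Changes of 1 log2 unit were called for 20% of changed genes in DNCB against sham. In gel against vehicle and gel against sham the shares were 29% and 28%. For changes of 2 log2 units they were 78%, 80% and 72%, in the same order of comparisons. The number of arrays limits the precision.

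Genes named from other lists were up to 3 past the threshold in order of adjusted p, or the lowest p where none passed; further names were chosen after their values were seen. The members and lists were chosen with earlier results of these data known. Alternatives were quantile normalization, median centring, no filter, a stricter filter (at least 6 of 8 arrays), averaging of each gene's probe sets, all probe sets, no trend, a robust variance, a fit of only 2 groups, a block for replicate number, 3 covariates (spike-in level, Gapdh ratio, hair follicle level), and each array left out. A fit that left out DNCB array 2 and sham array 2, with the lowest and highest spike-in signal, was added after seeing the data. Promoters came from RefSeq. Figures were drawn with Python 3.11.15.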

Additional observations from a re-analysis of the deposited data

How the results depend on the processing

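The 7 keratins in 3 comparisons gave 459 tests under 22 alternatives, of which 401 kept direction and side of the threshold, 21 lost a call, 8 gained one and 29 turned sign; the cause was not tested except where named. In DNCB against sham, all genes called (227) became 452 with the Gapdh ratio, 15 with the hair follicle level and 16 with the spike-in level as covariate, 7 without both DNCB array 2 and sham array 2, the extreme pair in spike-in signal (a setting chosen after seeing the data) and 15 to 352 with 1 array left out. Keratin genes called (2) became 1 with the hair follicle level, 0 with the spike-in level, 1 with the stricter filter, which drops Krt77 by construction, 1 without the extreme pair (Krt15 then at -2.37, adjusted p = 0.377 by limma) and 0 to 4 with 1 array left out. Keratin probe sets called (2) became 1 with the hair follicle level, 1 with median centring, 1 with the stricter filter, 0 with the spike-in level, 0 without the extreme pair and 0 to 4 with 1 array left out. In DNCB+HY209 against sham, all genes called (50) became 31 with the hair follicle level, 24 with probe sets averaged, 16 in a fit of only these groups, 97 after quantile normalization, 10 with the spike-in level, 8 without the extreme pair and 9 to 287 with 1 array left out. Keratin genes called (1) became 2 with the Gapdh ratio, 2 after quantile normalization, 0 in a fit of only these groups, 0 with the spike-in level, 0 with the stricter filter and 0 to 4 with 1 array left out. Keratin probe sets called (1) changed to the same numbers under these settings and to 0 to 6 with 1 array left out. DNCB+HY209 against DNCB had 0 keratins called under each alternative run.

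The labels do not say whether the replicate numbers pair the arrays. Deviations of same-numbered DNCB and DNCB+HY209 arrays correlated at 0.12, 0.28 and -0.60. These deviations are taken from the mean of each small group and so depend on each other, and they cannot decide whether arrays were paired. With the replicate number as a block, 35 and 12 genes were called in the comparisons of DNCB and DNCB+HY209 with sham, 1 and 1 keratin genes (Krt77) and 0 and 0 keratin probe sets.

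Signs turned only where no test passed. In DNCB against sham, Krt10 was -0.56 with the spike-in level and -0.087 without the extreme pair, and Krt5 was -0.66 with the hair follicle level, -0.30 with the spike-in level and -0.18 to 0.53 with 1 array left out. In DNCB+HY209 against sham, Krt10 was -0.97 and Krt5 -0.34 with the spike-in level, and Krt5 was -0.41 with the hair follicle level and -0.20 to 0.59 with 1 array left out. In DNCB+HY209 against DNCB, Krt1, Krt10, Krt14 and Krt5 were 0.15, 0.25, 0.067 and 0.15 without the extreme pair, Krt14 and Krt5 were 0.11 and 0.25 with the hair follicle level, and Krt15 was -0.18 with the Gapdh ratio. With 1 array left out that comparison gave -0.48 to 0.35 for Krt1, -1.11 to 0.50 for Krt10, -0.41 to 0.28 for Krt14, -0.29 to 0.55 for Krt15, -0.26 to 0.41 for Krt5 and -0.76 to 0.072 for Krt77. Signal near the array median limits Krt77 and leaves Krt2 without a measured difference.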
